A study of Mus musculus with 2 samples.

Results

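The proteasome is the barrel-shaped protease that degrades ubiquitin-tagged proteins in the cytosol and nucleus. Its 20S core is a stack of rings of alpha subunits (Psma genes), which gate the channel, and beta subunits (Psmb genes), of which Psmb5, Psmb6 and Psmb7 carry the cutting sites. The 19S cap binds ubiquitin chains, unfolds the substrate with a ring of ATPases (Psmc genes) and strips the ubiquitin through its lid (most Psmd genes). Under interferon-gamma the constitutive cutting subunits can be exchanged for the immunoproteasome subunits Psmb8, Psmb9 and Psmb10. The immunoproteasome makes many of the peptides shown on MHC class I.

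Described here are the constitutive proteasome genes in the pancreatic lymph node of diabetic mice. They were taken as the array probes whose gene name starts with Psma, Psmb, Psmc or Psmd and a digit, leaving out the 3 immunoproteasome genes. This gave 53 probes of 36 gene names among 41174 gene probes on the array. Of these, 28 probes of 26 genes had a ratio in the deposited value table, which holds 5072 gene probes of 4413 genes. The measured genes were 12 of 15 for the core and 14 of 21 for the cap. One gene name caught by the rule, Psmc3ip, encodes a meiotic recombination protein that binds Psmc3 and is no subunit; it was not measured.

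RNA came from the pancreatic lymph nodes of female NOD mice aged 16 weeks, a strain that develops autoimmune diabetes. One group was 2 hyperglycemic mice (blood glucose above 500 mg/dl), each labelled with Cy5 on an array of its own. The other was a pool of 2 euglycemic mice (below 200 mg/dl), labelled with Cy3 and set against both mice. All values below are log2 ratios of mouse over pool, so a positive value is a higher signal in the hyperglycemic mouse. The pool counts as 1 control sample, so the spread among euglycemic mice was not measured, and a dye effect on a single probe cannot be told apart from the difference between the groups.

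Cy5 was the dim channel. Over the 28 member probes the median Cy5 signal was 74.6 in mouse 1 and 88.3 in mouse 2. The median local background was 35 on each array, and the median Cy3 signal was 4180 and 2341. The arrays differed in Cy3: 21.7% of gene spots were well above background on array 1 and 63.0% on array 2. In Cy5 these shares were 14.5% and 16.4%. Of the probes in the value table, 27.3% had a local Cy3 background over 62 on array 1, which bears on comparisons between the mice. Of the T cell markers on the array, 10 of 16 were well above background in Cy5 on both arrays (Cd3e and Cd4 were not), as were 6 of 11 B cell markers (Cd79a was not). All 25 exocrine pancreas markers on the array were too. The 10 measured T cell genes were all called lower, with a median of -1.18, and of the 25 exocrine genes 11 were called higher and 3 lower, with a median of 0.49. Of the other lists, 4 of 5 erythroid genes were called higher (median 1.10), 1 of 6 B cell genes higher and 4 lower (median -0.55), and 2 of 4 adipocyte genes lower (median -0.81). Of 6 macrophage genes 2 were called higher and 1 lower (median 0.34). Of 3 plasma cell genes 1 was higher and 2 lower (median -0.55), and of 9 proliferation genes 1 was higher and 3 lower (median -0.37). For all genes with a deposited ratio, the called shares were 25.4% higher and 18.2% lower. No list was tested against these shares. From the scanner signals with loess all 25 exocrine genes were above 0, with a median of 4.70, and the T cell median was -0.52. The part of these shifts in the proteasome values was not tested, and in whole tissue fewer cells of a type and less RNA per cell cannot be told apart.

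Most measured constitutive proteasome genes lay close to the pool in both hyperglycemic mice. Each member probe with a deposited ratio carried the well-above-background flag for each dye in each mouse, and no other member probe did. The medians and shares below therefore leave out members whose signal was dim in the hyperglycemic mice. The median log2 ratio of the 26 genes was 0.10 in mouse 1 and -0.0032 in mouse 2, beside 0.087 and 0.036 over all 4413 genes of the table. The mean ratio of 21 of the 26 genes (80.8%) was within 0.5 of 0, against 58.2% of all genes. In limma's moderated test with Benjamini-Hochberg adjustment over all probes of the table, 2 genes were called higher and 3 lower at an adjusted p under 0.05, and 21 were not called. The higher genes were Psma2 of the core and Psmd3 of the cap, and the lower genes were Psmb5 of the core and Psmc4 and Psmd6 of the cap. Of all genes measured, 25.4% were called higher and 18.2% lower, together 43.6%. The members' share of 19.2% was thus below that background, and no test of this difference was made. These calls depend on the probes in the fit: with the same ratios but every probe well above background in either channel, limma called 0 of 8814 probes, while 2 members were higher and 3 lower at an unadjusted p under 0.05.

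**Figure D1:**
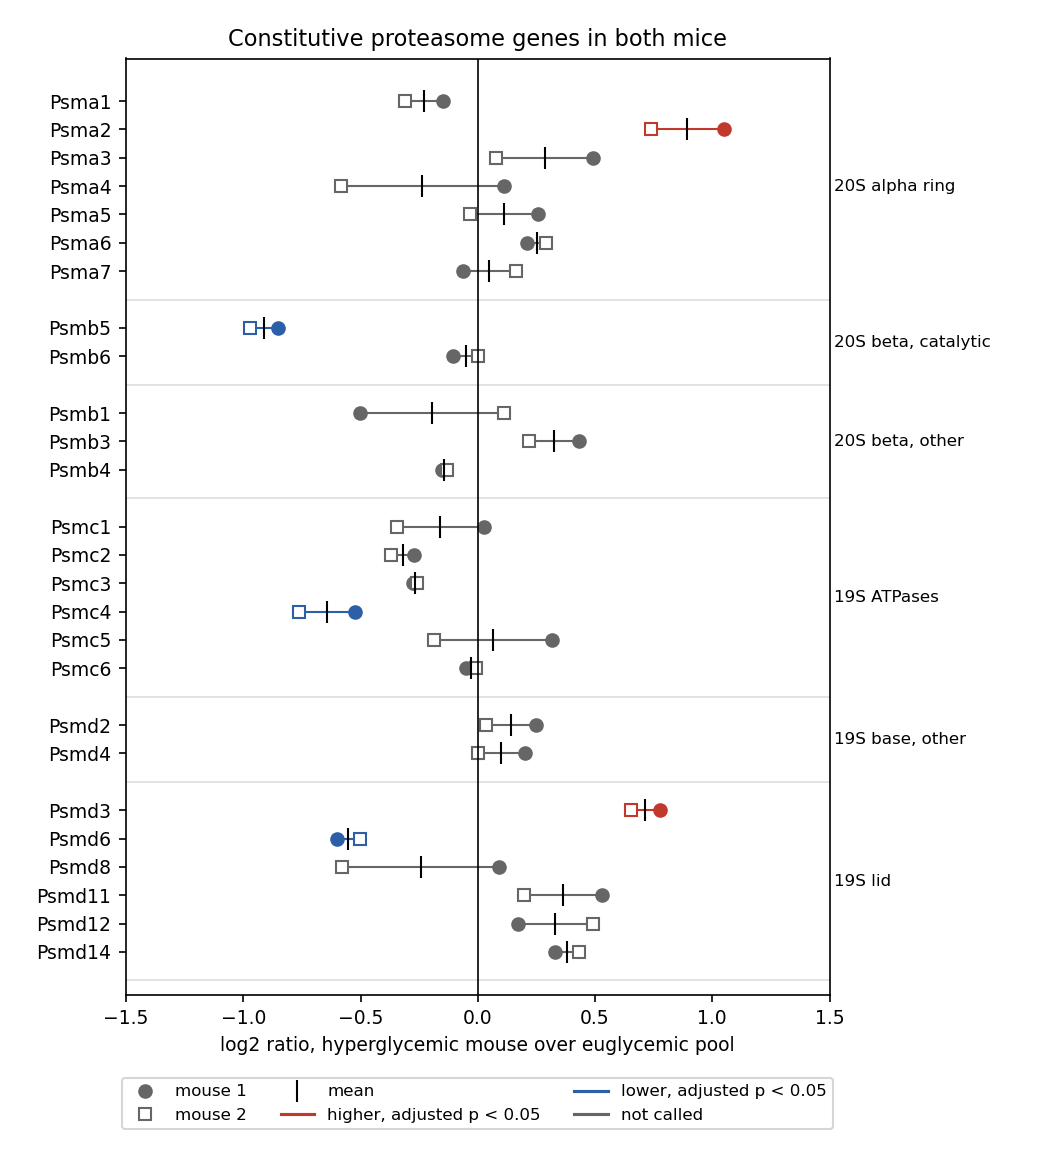
Log2 ratio (x axis, hyperglycemic mouse over euglycemic pool) of each of the 26 measured constitutive proteasome genes, grouped by place in the complex. Filled circles are mouse 1, open squares mouse 2 and black ticks their mean. Psma2 and Psmd3 sit to the right of 0 and Psmb5, Psmc4 and Psmd6 to the left in both mice, and the other 21 genes were not called.

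Among the alpha subunits of the core, Psma2 stood apart. Its Cy5 signal was 568 in mouse 1 and 521 in mouse 2, against Cy3 signals of 23587 and 11981 for the pool, the brightest Cy5 signals of any member probe. The log2 ratio was 1.05 in mouse 1 and 0.74 in mouse 2, a mean of 0.89 ± 0.22 (SD, n = 2), or 1.86-fold higher than the pool (adjusted p = 0.00528, limma). The probe lies on mm8 chromosome 13, 14417588 to 14417647. Both mice were above the pool, by more than the gap between them. From the scanner signals with background correction by normexp and loess the same probe read 2.07 ± 0.95 (adjusted p = 0.0312, limma), and with median centring in place of loess it turned to -2.88.

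The other 6 measured alpha subunits were not called, and together the 7 had a median of 0.21 in mouse 1 and 0.079 in mouse 2. Psma3 read 0.49 in mouse 1 and 0.079 in mouse 2. Psma6 read 0.21 and 0.29, and Psma5 read 0.25 and -0.035. Both were within 0.5 of the pool in each mouse. Psma7 was at -0.062 and 0.16, and Psma1, below the pool in both mice, was at -0.15 and -0.31.

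Psma4 was measured by 2 probes, which disagreed. The brighter probe (chromosome 9, 54752821 to 54753020) read 0.11 in mouse 1 and -0.58 in mouse 2. The other (chromosome 9, 54753071 to 54754417) read -0.57 in mouse 1 and 0.60 in mouse 2. The order of the mice was thus opposite between the probes, and neither was called (adjusted p = 0.369 and 0.974, limma). The brighter probe had a local Cy3 background of 204 on array 1, against a median of 31 over gene spots there, and the other probe one of 29.

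Of the cutting subunits of the core, Psmb5, which cuts after hydrophobic residues (the chymotrypsin-like site) and is the main target of the drug bortezomib, was the lowest of all members. Its Cy5 signal was 53.9 in mouse 1 and 61.0 in mouse 2, and the Cy3 signal of the pool was 3563 and 2241. The log2 ratio was -0.85 and -0.97, a mean of -0.91 ± 0.084 (SD, n = 2), or 1.88-fold lower (adjusted p = 0.004, limma). Both mice were below the pool, with a gap between them far smaller than their distance from it. The probe lies on chromosome 14, 53568529 to 53568588. In the scanner signals with loess it read -0.32 and was not called (adjusted p = 0.207, limma).

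Psmb6, the caspase-like cutting subunit, read -0.10 in mouse 1 and -0.00039 in mouse 2 (adjusted p = 0.804, limma). The 95% interval of its mean ran from -0.41 to 0.31, and the Psmb5 mean of -0.91 lay outside it. This interval is built from the spread between arrays and holds no spread of the shared pool or dye. It therefore does not exclude a group shift of that size for Psmb6. Psmb7, the trypsin-like subunit, was not well above background in Cy5 on either array. In the deposited ratios Psmb5 was thus called lower and Psmb6 lay near the pool, and the difference between them was not tested. From the scanner signals with loess Psmb5 read -0.32 and Psmb6 -0.075, and neither was called.

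The remaining beta subunits have no cutting site of their own. Psmb4 read -0.15 in mouse 1 and -0.13 in mouse 2, and Psmb1 read -0.50 and 0.11; neither was called. Psmb3 had 2 probes in the same gene that pointed in opposite directions in both mice. The brighter (chromosome 11, 97529524 to 97529583) read 0.43 and 0.22 (adjusted p = 0.134, limma), and the other (chromosome 11, 97527200 to 97527259) read -0.56 and -0.52 (adjusted p = 0.0256, limma). By the rule that a gene takes its brightest probe Psmb3 counts as not called, although its second probe was lower. The mean of both probes was -0.11.

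**Figure D2:**
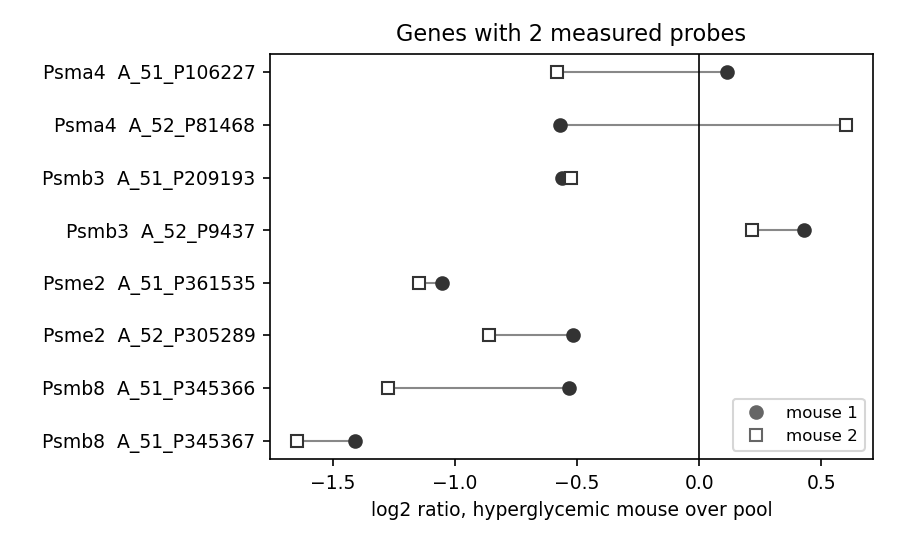
Log2 ratio (x axis, hyperglycemic mouse over pool) of each probe for 4 proteasome genes with 2 probes in the value table; filled circles are mouse 1 and open squares mouse 2. The probes of Psmb3 lie on opposite sides of 0 in both mice and those of Psma4 swap the order of the mice, while both probes of Psme2 and of Psmb8 lie below 0 in both mice.

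In the 19S cap the ATPases of the Psmc family, which pull the substrate into the core, were mostly at or slightly below the pool. Their median was -0.16 in mouse 1 and -0.30 in mouse 2, and 1 of 6 was called, as lower. This was Psmc4, with Cy5 signals of 56.4 and 58.3 and Cy3 signals of 3350 and 1823. Its log2 ratio was -0.52 in mouse 1 and -0.76 in mouse 2, a mean of -0.64 ± 0.17 (SD, n = 2), or 1.56-fold lower (adjusted p = 0.0161, limma; chromosome 7, 27750873 to 27751114). Both mice were below the pool. In the scanner signals with loess it read -0.28 (adjusted p = 0.245, limma).

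The other ATPases were not called. Psmc2 was at -0.27 and -0.37, and Psmc3 at -0.28 and -0.26, below the pool in each mouse. Psmc1 was at 0.025 and -0.34, Psmc5 at 0.32 and -0.19, and Psmc6 at -0.052 and -0.0060. Psmc1 and Psmc5 thus had the mice on opposite sides of the pool. The local Cy3 background on array 1 was 152 for Psmc1 and 79 for Psmc5, against a median of 31 over gene spots there. Leaving out probes with a background over 62 there removes both.

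In the base of the cap, Psmd2, the large scaffold subunit, read 0.25 in mouse 1 and 0.036 in mouse 2. Psmd4, a receptor for ubiquitin chains, read 0.20 and -0.00022. Neither was called, and both were nearer to the pool in mouse 2. The local Cy3 background of the Psmd4 probe on array 1 was 99, against a median of 31 over gene spots there.

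The lid of the cap moved both ways. Psmd3, a scaffold subunit of the lid, had Cy5 signals of 205 and 237 and Cy3 signals of 10378 and 5951. Its log2 ratio was 0.78 in mouse 1 and 0.65 in mouse 2, a mean of 0.72 ± 0.090 (SD, n = 2), or 1.64-fold higher (adjusted p = 0.00962, limma; chromosome 11, 98511959 to 98512018). Both mice were above the pool, with a small gap between them. The scanner signals with loess gave 0.89 (adjusted p = 0.0233, limma), while with median centring the probe read -3.07. The local Cy3 background of this spot on array 1 was 119, and leaving out probes with a background over 62 there removes it.

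Psmd6, also of the lid, went the other way. Its Cy5 signals were 51.6 and 60.6 and its Cy3 signals 2994 and 1867. The log2 ratio was -0.60 in mouse 1 and -0.50 in mouse 2, a mean of -0.55 ± 0.069 (SD, n = 2), or 1.47-fold lower (adjusted p = 0.0246, limma; chromosome 14, 12907456 to 12907515). Both mice were below the pool. In the scanner signals with loess Psmd6 read -0.24 (adjusted p = 0.264, limma).

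The other lid subunits were not called. Psmd14, the metalloprotease that cuts ubiquitin chains off the substrate, was at 0.33 in mouse 1 and 0.43 in mouse 2 (mean 0.38 ± 0.072, SD, n = 2; adjusted p = 0.0812, limma). Psmd11 was at 0.53 and 0.20, and Psmd12 at 0.17 and 0.49. These 3 were above the pool in both mice without passing the threshold. Psmd8 was at 0.092 and -0.58, with the mice on opposite sides of the pool.

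The measured genes of core and cap did not separate. In mouse 1 the median was 0.025 over the 12 core genes and 0.13 over the 14 cap genes, a difference of -0.11. In mouse 2 the medians were 0.039 and -0.097, a difference of 0.14. The sign of core minus cap was opposite in the 2 mice, and the mean of both differences was 0.015 ± 0.17 (SD, n = 2). With 2 mice the exact sign-flip permutation test cannot go below p = 0.5 (two-sided), so no test was made. In the core 1 gene was called higher and 1 lower, and in the cap 1 higher and 2 lower.

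**Figure D3:**
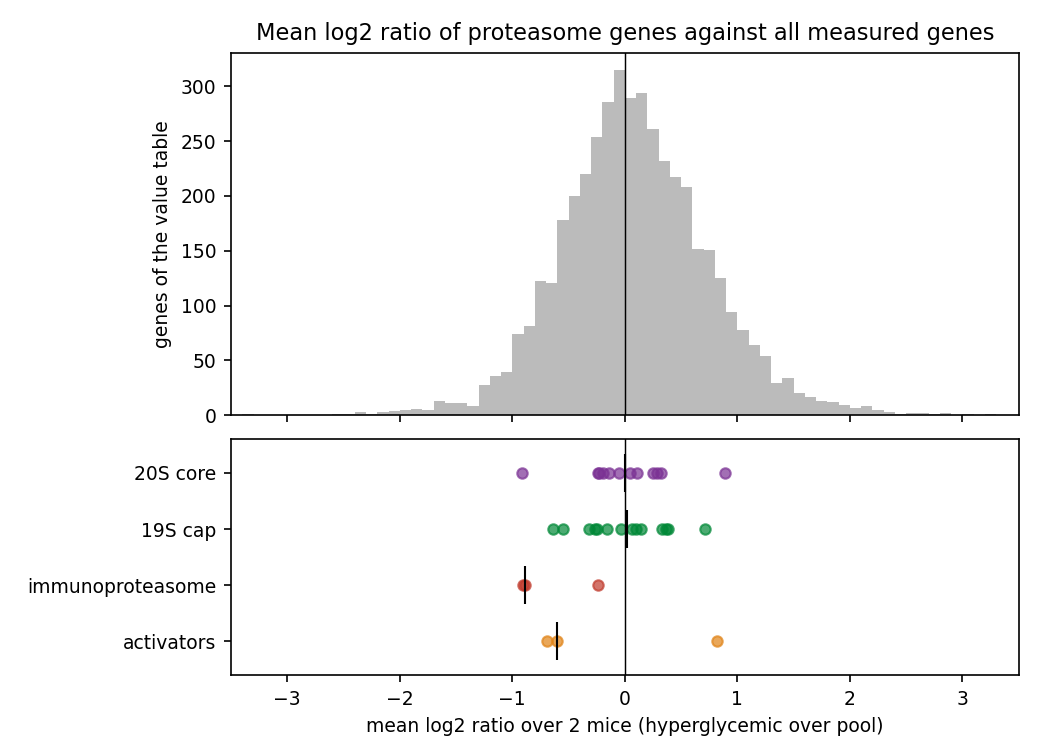
Top, number of genes (y axis) by mean log2 ratio over both mice (x axis, hyperglycemic over pool) for all genes of the value table; bottom, each measured gene of the 20S core, 19S cap, immunoproteasome and proteasome activators as a point, with a black tick at the group's median. Core and cap points cluster around 0, and the immunoproteasome genes all lie below it.

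The promoters of 4 called genes are shown. Psma2 was called higher, and Psmb5, Psmc4 and Psmd6 were called lower. The promoter of Psmd3, also called higher, is not shown. Each is the 250 bases before the transcription start from RefSeq (GRCm38.p6), 5′ to 3′ on the gene's strand. The capitals mark a match on either strand to 1 motif. This motif differs between the genes, so the marks do not compare a higher gene with lower ones. In Psma2 (chr13:14612992-14613241, plus strand) they mark the CCAAT box, in Psmb5 (chr14:54617996-54618245, minus strand) the core of the antioxidant response element TGACNNNGC, in Psmc4 (chr7:28050093-28050342, minus strand) 2 GC boxes GGGCGG, and in Psmd6 (chr14:14120946-14121195, minus strand) the ETS motif CCGGAAG.
Psma2: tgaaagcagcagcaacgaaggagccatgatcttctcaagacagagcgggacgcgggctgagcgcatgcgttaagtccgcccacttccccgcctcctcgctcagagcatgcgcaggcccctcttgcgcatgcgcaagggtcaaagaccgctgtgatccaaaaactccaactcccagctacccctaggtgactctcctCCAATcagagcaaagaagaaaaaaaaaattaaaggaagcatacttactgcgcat
Psmb5: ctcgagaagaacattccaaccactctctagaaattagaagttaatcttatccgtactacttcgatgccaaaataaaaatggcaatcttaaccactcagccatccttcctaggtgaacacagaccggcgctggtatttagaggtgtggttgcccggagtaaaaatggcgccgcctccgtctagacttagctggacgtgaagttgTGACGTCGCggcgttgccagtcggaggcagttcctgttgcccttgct
Psmc4: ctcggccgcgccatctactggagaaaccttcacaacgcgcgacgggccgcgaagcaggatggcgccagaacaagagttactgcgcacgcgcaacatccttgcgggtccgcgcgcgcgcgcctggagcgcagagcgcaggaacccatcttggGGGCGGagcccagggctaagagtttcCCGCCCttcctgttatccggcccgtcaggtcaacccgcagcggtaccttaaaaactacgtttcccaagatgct
Psmd6: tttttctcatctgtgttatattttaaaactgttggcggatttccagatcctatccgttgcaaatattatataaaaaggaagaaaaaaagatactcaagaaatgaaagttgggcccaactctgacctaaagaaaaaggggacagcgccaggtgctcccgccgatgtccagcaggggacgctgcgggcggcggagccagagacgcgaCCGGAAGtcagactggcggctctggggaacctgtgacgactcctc

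Of the 26 measured genes, 23 matched an entry of the promoter table, and 8 motifs were searched in these windows. The antioxidant response element is the site through which Nfe2l1 is known to raise proteasome genes when the protease is inhibited. Its core TGACNNNGC was in 4 of 23 members (Psmb5, Psmb6, Psmc6 and Psmd12), or 17.4%, against 11.5% of 27025 genes in the table. The variant TGAGNNNGC was in 6 members (26.1%, against 16.3%). The related AP-1 site TGACTCA was in 0 of 23 members, against 5.16% of all genes. The ETS motif CCGGAAG was in 9 members (39.1%, against 7.83%), among them Psmd6 but none of Psma2, Psmb5 and Psmc4. The GC box GGGCGG was in 14 members (60.9%, against 35.4%), the CCAAT box in 10 (43.5%, against 37.5%) and the E-box CACGTG in 1 (4.35%, against 6.86%). The GC box was in Psma2, called higher, as well as in Psmc4 and Psmd6, called lower. The palindromic ETS motif TTCCGGAA, which overlaps CCGGAAG in 6 letters, was in 1 member (4.35%, against 0.662%). These matches describe letters in the window and not bound sites.

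The 3 immunoproteasome subunits that replace the constitutive cutting subunits can be set beside them. Psmb8, which takes the place of Psmb5, read -0.53 in mouse 1 and -1.27 in mouse 2 on its brighter probe (adjusted p = 0.0116, limma) and -1.41 and -1.64 on the other. Psmb9, the counterpart of Psmb6, read -1.05 and -0.73 (adjusted p = 0.00541, limma), and Psmb10, the counterpart of Psmb7, read -0.26 and -0.21 (adjusted p = 0.246, limma). From the scanner signals Psmb8 read -0.64 and -0.85 on its probes and Psmb9 -0.39, while Psmb10 turned to 0.57. In the deposited ratios Psmb5 and Psmb8 were thus both lower, and Psmb9 was lower where Psmb6 was near the pool.

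The activators bind the ends of the core in place of the 19S cap. Psme1 and Psme2, the interferon-induced PA28 subunits, were both called lower. Psme1 read -0.61 in each mouse (adjusted p = 0.017, limma). Psme2 read -0.52 in mouse 1 and -0.86 in mouse 2 on its brighter probe (adjusted p = 0.0143, limma) and -1.05 and -1.15 on the other. From the scanner signals the brighter Psme2 probe turned to 0.73, and Psme1 read -0.22 (adjusted p = 0.317, limma). Psme4, the nuclear activator PA200, went the other way, at 1.04 and 0.59 (mean 0.82 ± 0.32, SD, n = 2; adjusted p = 0.00922, limma). It read 0.48 (adjusted p = 0.0609, limma) from the scanner signals. All 3 measured activators were thus called in the deposited ratios, where 43.6% of all genes were, and none of the 3 was called from the scanner signals in limma. Psme3, the nuclear PA28 subunit, had no probe in the value table; it was well above background in Cy5 on both arrays and in Cy3 on 1, and read 1.93 and 1.72 in the processed signals. The proteasome inhibitor Psmf1 was not well above background in Cy5 on either array.

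Of 43 other genes listed for the pathway (immunoproteasome, activators, assembly, associated proteins, ubiquitin and shuttles, regulators), 26 were measured, 3 were called higher and 6 lower, with a median of -0.04. This is 34.6% called, against 43.6% of all genes. Beside those above, the proteasome-binding zinc finger protein Zfand5 was higher at 0.85 and 1.36 (adjusted p = 0.0035, limma) but read -0.044 from the scanner signals. A further Zfand5 probe, brighter in Cy3 and dim in Cy5 on both arrays, read the other way in the processed signals, at -1.499 and -2.505, so the direction of this gene differed between its probes. The assembly chaperone Psmg2 was lower at -0.66 and -0.71 (adjusted p = 0.011, limma). Among regulators, the table's probe of the antioxidant response factor Nfe2l2 was higher at 0.73 and 0.63 (adjusted p = 0.0114, limma), with Cy5 signals of 46.8 and 48.4, and read 0.086 (adjusted p = 0.655, limma) from the scanner signals. Further Nfe2l2 probes, brighter in Cy3, read -3.47 and -3.63, and -1.26 and -1.10, in the processed signals, so the direction of this gene too differed between its probes. Ddi2, the protease that activates Nfe2l1, was lower at -0.30 and -0.74 (adjusted p = 0.0442, limma). Nfe2l1 itself was at -0.40 and -0.28 (adjusted p = 0.113, limma). Of the ubiquitin genes and shuttle factors 0 of 7 were called in limma, with mean ratios from -0.26 for Ubb to 0.44 for Rad23b and 1 of 7 higher at an unadjusted p under 0.05. From the scanner signals all 7 were above 0 and 4 were called higher, and Ubb turned to 1.45.

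The 10 gene names with no probe in the value table were Psma8, Psmb2, Psmb7, Psmc3ip, Psmd1, Psmd5, Psmd7, Psmd9, Psmd10 and Psmd13. None of their probes was well above background in Cy5 on both arrays, and that of Psmd10 was so on 1. Psmb2 and Psmd5 were well above background in Cy3 on both arrays and dim in Cy5. After loess and Aquantile normalization the mean log2 signal of Psmb2 was 8.02 in Cy3 and 7.84 in Cy5, and that of Psmd5 was 8.0457 and 8.0004. For the lid subunit Psmd7 one such probe gave 8.39 and 8.22 and another gave 7.86 in both. With Cy5 not well above background, no fold is given for these genes. The cap subunits Psmd5, Psmd9 and Psmd10 are chaperones that help assemble the cap and leave the finished complex, and all 3 were unmeasured.

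Several members had a further probe outside the value table, and these are given by the log2 ratio of the processed signals of the scanner software. The second Psmc4 probe (chromosome 7, 27751254 to 27751455) read -0.43 in mouse 1 and -0.12 in mouse 2, below the pool like the called probe. The second Psmd14 probe (chromosome 2, 61561840 to 61561899) read 0.057 and 0.64, above the pool like its measured probe. Each was well above background in Cy5 on 1 array. Further probes of Psmc2, Psmc5, Psmc6, Psmd4, Psmd11 and Psmd12 were not well above background in Cy5 on either array. The second probe of Psma2 (chromosome 13, 14418417 to 14418476) was not above background in either channel on either array, so the Psma2 value rests on 1 probe.

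The deposited ratios and the scanner signals with loess had the same sign for 22 of the 26 members on the same probes. The 4 others were Psmb4, Psmc5, Psmd2 and Psmd4, none of them called in either processing. In the scanner signals 2 of the members' probes were called higher, again Psma2 and Psmd3, and 0 lower, while 3 members (Psmb5, Psmc2 and Psmc4) were lower at an unadjusted p under 0.05. There 5.16% of 7309 genes were called higher and 0.479% lower, together 5.64%. Leaving aside median centring, which put nearly every probe below 0, Psma2 was called higher under 7 of 8 alternative processings, Psmd3 higher under 6 of 7, Psmb5 and Psmd6 lower under 6 of 8 and Psmc4 lower under 5 of 8. Several of these alternatives left the ratios of the called genes unchanged and could alter only the test. They were the processed signals, the intensity trend, the probe means and the setting without probes of high Cy3 background, which removed Psmd3. The counts are therefore not of independent checks. Both processings read the same 2 arrays.

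**Figure D4:**
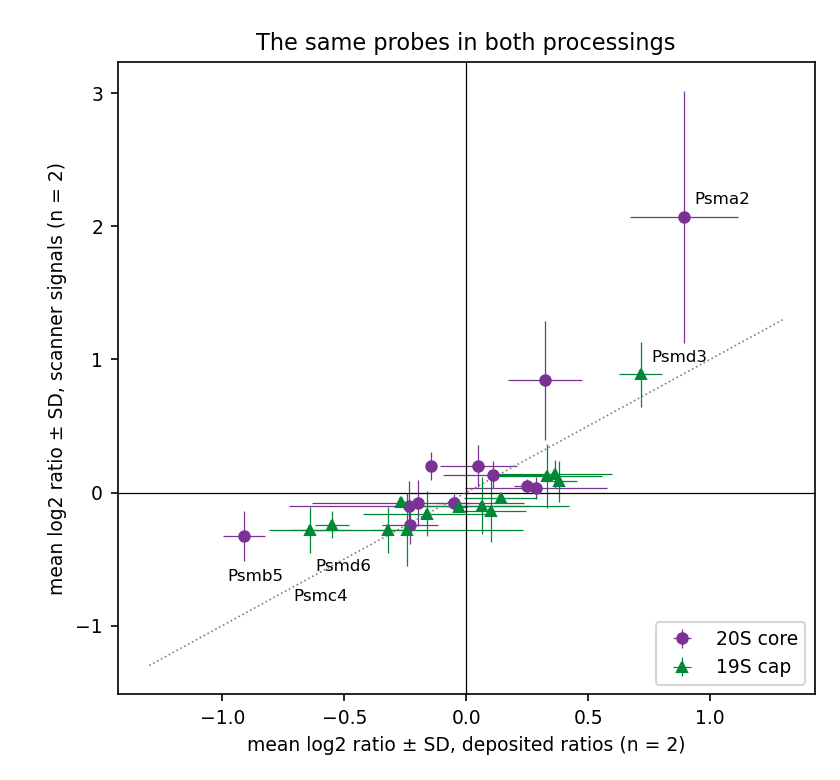
Mean log2 ratio ± SD over 2 mice for each of the 26 members from the deposited ratios (x axis) and from the scanner signals with loess (y axis); circles are 20S core genes, triangles 19S cap genes, and the dotted line marks equal values. Psma2 and Psmd3 lie high on both axes, and Psmb5, Psmc4 and Psmd6 lie nearer to 0 from the scanner signals.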

How the data were processed

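Each of the 2 arrays (Agilent design 014868) held 1 hyperglycemic mouse in Cy5 and the pool in Cy3, from 1 ug of total RNA per the labels. Per the file headers, Feature Extraction 10.7.3.1 gave the spot and background intensity values, which carry no normalization, and processed intensity values that were background-subtracted with spatial detrending and corrected for dye. Per the file headers a log10 column gives the ratio of Cy5 to Cy3. The deposited log2 ratios equal these after the change of base. How their 5098 probes, 5072 of them gene probes, were chosen is not given in the sources used here. The member probes among them all carried the well-above-background flag for each dye in each mouse, and no other member probe did. A member dim in Cy5 thus did not count as measured. Probe positions are those of mm8, per the file headers.

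limma 3.58.1 (R 4.3.3) tested each probe's mean deposited log2 ratio against 0 (two-sided, 1 residual degree of freedom), with Benjamini-Hochberg adjustment over the 5072 probes. A gene took its brightest probe. The deposited ratios were used as the main values because they define which probes count as measured. Alternatives were scanner signals (normexp offset 50, loess span 0.3 or median centring, or no background correction; keeping probes that pass the well-above-background flag on both arrays in either channel), processed signals, centring, a further loess on intensity, an intensity trend, probe means, each mouse alone and, added after seeing the data, leaving out probes of high Cy3 background on array 1. The code was tested on simulated data. All measured members were named; of the other pathway genes, those called and all immunoproteasome and activator genes were, with Nfe2l1, Ubb and Rad23b added after their values were seen. The members and gene lists were chosen with earlier results of these data known. Gene names are those of the array, matched for the lists through RefSeq. The number of arrays limits the precision, and both arrays shared 1 control pool. No spot flagged as an outlier (338 and 184 gene spots) was used in the scanner-signal values.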

Additional observations from a re-analysis of the deposited data

Results flagged for a closer look

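Member probes outside the deposited value table were searched only for a log2 ratio of the processed signals over 0.5 on both arrays. Probes of 2 cap genes passed, reading higher in the hyperglycemic mouse. The Psmd10 probe read 0.66 in mouse 1 and 0.94 in mouse 2, with Cy5 signals of 44.0 and 48.4 over local backgrounds of 36 and 34.5. A second Psmd2 probe read 1.22 and 0.52, with Cy5 signals of 46.2 and 46.5 over 35 and 36.5. Each was well above background in Cy5 on 1 array and in Cy3 only on array 2, and no test was made on either. Readings below the pool were not searched for. Among these, a Psmd5 probe read -0.79 in mouse 1 and -2.38 in mouse 2. Probes of Psmd7 read -0.58 and -0.97, and -0.90 and -0.55. These lower probes were not well above background in Cy5 on either array.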

How the results depend on the processing

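No paired analysis was possible because both mice were set against the same pool. With the further loess on intensity and the intensity trend every member kept its direction and its call. Processed signals with the filter on 1 channel called 0 members and 0 other pathway genes in either direction (limma; 0 of 8814 probes in all), although the values of the 26 members were those of the deposited ratios; at an unadjusted p under 0.05 2 members were higher and 3 lower, and 3 and 5 other pathway genes. The scanner signals with loess called 0 members lower (3 at an unadjusted p under 0.05), 5 other pathway genes higher and 0 lower (3 unadjusted), and turned Psmb4 to 0.20, Psmc5 to -0.10, Psmd2 to -0.040 and Psmd4 to -0.14. Without background correction 6 other pathway genes were called higher and 2 lower, Psmd4 was at -0.0090, Psmb3 was called higher (0.51, adjusted p = 0.0180, limma) and Psmc4 was no longer called (-0.40, adjusted p = 0.0545, limma). Scanner signals with median centring put 8743 of 8814 probes below 0: 0 members were higher and 26 lower, 0 other pathway genes higher and 26 lower, the core median was -3.21, the cap median -2.90 and their difference -0.30, with Psma2 at -2.88, Psma3 at -2.76, Psma5 at -3.12, Psma6 at -2.89, Psma7 at -3.71, Psmb3 at -3.52, Psmc5 at -2.54, Psmd11 at -3.18, Psmd12 at -3.30, Psmd14 at -2.74, Psmd2 at -2.90, Psmd3 at -3.07 and Psmd4 at -2.53. Probe means turned Psmb3 to -0.11, and array medians set to 0 turned Psma7 to -0.0038. The cause of these turns was not tested. The core median was -0.0011 in the deposited ratios, -0.055 with array medians at 0, -0.034 after the further loess, 0.040 and 0.037 from scanner signals with and without background correction, -0.081 with probe means and from 0.025 to 0.039 with 1 mouse left out. Leaving out probes of high Cy3 background on array 1 was a setting chosen after seeing the data. There 1 member (Psma2) was higher and the core median was 0.050. Core minus cap, taken here between medians of the mean ratio over both mice, was 0.19, against -0.019 in the deposited ratios. The 0.015 given earlier is instead the mean of the differences within each mouse. The dim Cy5 channel limits all ratios: the called lower members had Cy5 signals of 51.6 to 61.0 over about 35.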
